A study of Danio rerio with 7 samples.

Results

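The 10 genes described here belong to autophagy and mitophagy, together with the transcription factor gene foxo3b, and were measured in gata1-positive erythroid cells of zebrafish. They were chosen by name, with earlier results of these data known: foxo3b, bnip3la, bnip3lb, gabarapa, gabarapl2, map1lc3b, sqstm1, atg5, atg7 and ulk1a. The symbols led to 10 rows among the 32105 gene IDs of the table, and all 10 passed the filter on low counts that left 18565 genes for testing. Both bnip3l symbols are written BNIP3L in capitals in the name table, without a paralog letter, so the rows could not be told apart as bnip3la and bnip3lb. They are called here by abundance, the higher-count BNIP3L (ENSDARG00000028067) and the lower-count BNIP3L (ENSDARG00000025468). A further capital row, ULK1 (ENSDARG00000074481), carries no paralog letter either; because ulk1a has a row of its own, ULK1 was not counted as a member and is described with the other initiation genes.

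Polyadenylated RNA was sequenced from gata1-positive cells at 40 hours post fertilization in 2 groups. The control group was 4 libraries from sibling embryos (replicates 1, 3, 4 and 5), and the other group was 3 libraries from ddx41 mutants (replicates 2, 3 and 4). Red cell precursors are marked by gata1, which encodes one of their master transcription factors, and the product of ddx41 is an RNA helicase of the DEAD-box family. The name of the deposited matrix holds gata1dsred, which points to a dsRed reporter of gata1 in all 7 libraries. The labels give neither the ddx41 allele nor the genotype of the siblings, and neither the number of embryos behind a library nor the method of isolation. The ddx41 transcript is not analysed here. Since separate clutches are not named, every p-value below rests on the spread among these 7 libraries, which may be technical.

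In autophagy, a membrane closes around a part of the cytoplasm and delivers it to the lysosome. Small ubiquitin-like proteins of the ATG8 family are joined to lipid on that membrane by the ATG conjugation enzymes, and receptor proteins tie the cargo to them. Mammalian red cell precursors clear their mitochondria in this way during maturation, with BNIP3L (also called NIX) as a receptor on the mitochondrial surface. In mouse erythroblasts the transcription factor Foxo3 is required for normal maturation and activates autophagy genes. Zebrafish red cells keep their nucleus.

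Total counts ran from 11814324 to 14363255 per library, and counts of the members from 58 to 5492. Erythroid markers were abundant in every library, and of 13 IDs 1 rose and 3 fell. Their summed level was 86253 to 121667 CPM (read counts scaled to library size with the TMM method) in siblings and 34458 to 65824 CPM in mutants. For the 10 of these IDs that are not globins it was 30302 to 37290 and 18205 to 31849 CPM. Macrophage markers (16 IDs, of which 1 rose and 5 fell) summed to 792 to 1561 CPM in siblings and 403 to 759 CPM in mutants. The thrombocyte sum (6 IDs, of which 1 fell) was 274 to 348 and 145 to 263 CPM. The muscle sum (5 IDs, of which 3 fell) was 40.5 to 76.6 and 28.2 to 33.7 CPM. The neural sum (7 IDs, of which 1 fell) was 75.8 to 185 and 44.9 to 203 CPM. Epidermal markers (5 IDs, of which 2 rose) summed to 271 to 1039 CPM in siblings and 730.1 to 1385 CPM in mutants. Of all 46 tested marker IDs 8.7% rose and 28.3% fell, where 8.87% of all tested genes rose and 7.69% fell. The part of these shifts in the results below was not tested.

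Of the 10 members, 4 were lower in mutants by edgeR's quasi-likelihood test with Benjamini-Hochberg adjustment over all genes at 0.05: foxo3b, ATG7, gabarapa and the higher-count BNIP3L. This is 40% of the members, where 16.6% of all tested genes were called in either direction, 7.69% lower and 8.87% higher. The members and the lists below were chosen with earlier results of these data known, so such shares are descriptions. None was higher, also at an unadjusted p under 0.05 and with DESeq2 or limma-voom. The median log2 fold change was -0.40 over the members and 0.04 over all tested genes. Siblings and mutants were fully separate at 5 members and at 27.5% of all tested genes. In bulk RNA, fewer cells of a type and less RNA per cell cannot be told apart. Leaving out mutant replicate 2 or 4 of the ddx41 group, or replicate 4 or 5 of the siblings, left 2 members called.

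The foxo3b gene (ENSDARG00000042904) encodes a forkhead transcription factor that in mammals activates stress resistance and autophagy genes. Its level was 186, 197, 328 and 249 CPM in sibling replicates 1, 3, 4 and 5, and 92.5, 137 and 97.2 CPM in mutant replicates 2, 3 and 4. Every mutant library lay below every sibling, and sibling replicate 4 was the highest of all. The means were 239.8 ± 64.7 CPM (SD, n = 4) and 109 ± 24.6 CPM (SD, n = 3), a 2.2-fold lower level in mutants. The log2 fold change was -1.14 with a standard error of 0.23 and an edgeR adjusted p of 0.00417, and foxo3b stayed past the threshold without each library in turn (adjusted p 0.00247 to 0.0297).

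**Figure D1:**
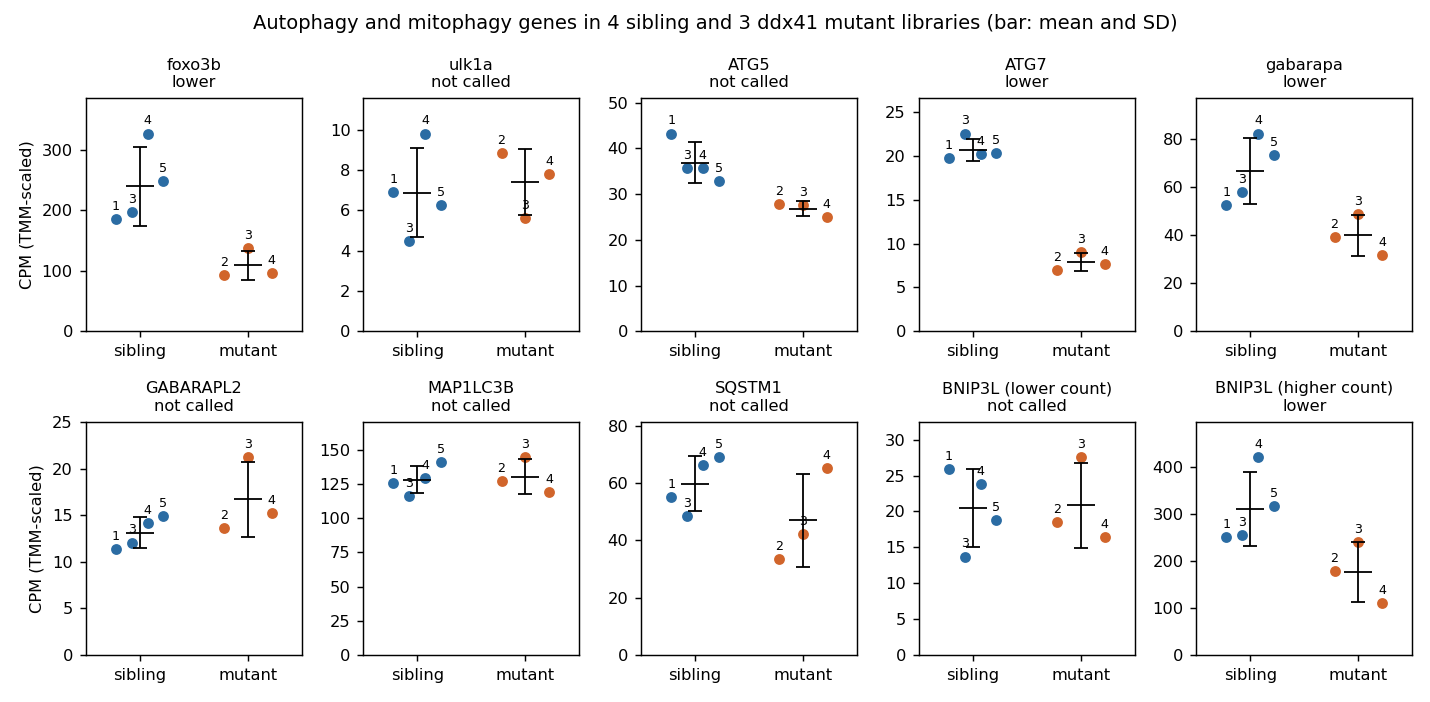
Level of each of the 10 members in CPM (y axis, from 0) in the 4 sibling and 3 ddx41 mutant libraries; points are libraries with their replicate number, and bars are the mean and SD. The mutants lie below all siblings at foxo3b, ATG7, ATG5, gabarapa and the higher-count BNIP3L, and overlap with them at the other 5 members, where mutant replicate 3 is the highest library at GABARAPL2, MAP1LC3B and the lower-count BNIP3L.

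ULK1 kinases start the formation of the autophagosome. The level of ulk1a (ENSDARG00000062518) was 6.92, 4.50, 9.82 and 6.28 CPM in sibling replicates 1, 3, 4 and 5 and 8.83, 5.60 and 7.81 CPM in mutant replicates 2, 3 and 4. The groups overlapped, and the log2 fold change of 0.11 had a 95% interval from -0.63 to 0.85 (edgeR adjusted p = 0.87), which leaves room for a change of either sign.

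The conjugation enzymes are represented by ATG7 and ATG5. ATG7, the E1-like enzyme that activates ATG8 proteins and ATG12, had 19.8, 22.6, 20.2 and 20.3 CPM in sibling replicates 1, 3, 4 and 5 and 7.0, 9.06 and 7.68 CPM in mutant replicates 2, 3 and 4. Its siblings were close together and its mutants far below them. ATG7 was 2.62-fold lower, at 20.7 ± 1.24 CPM (SD, n = 4) against 7.91 ± 1.05 CPM (SD, n = 3), with a log2 fold change of -1.39, a standard error of 0.24 and an edgeR adjusted p of 0.00137. It remained past the threshold without each library in turn (adjusted p 0.00198 to 0.0101). ATG5, which is joined to ATG12 and helps place ATG8 on lipid, had 43.3, 35.7, 35.7 and 32.8 CPM in the same siblings and 27.9, 27.7 and 24.9 CPM in the mutants. The groups did not overlap at ATG5, but its log2 fold change of -0.46 (95% interval -0.88 to -0.04) did not pass the test (edgeR adjusted p = 0.13).

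Of the ATG8 proteins, gabarapa (ENSDARG00000035557) was the member that fell. It had 52.6, 57.9, 82.1 and 73.3 CPM in sibling replicates 1, 3, 4 and 5 and 39.2, 48.7 and 31.7 CPM in mutant replicates 2, 3 and 4. All mutants were below all siblings, with mutant replicate 3 nearest to them. Gabarapa was 1.67-fold lower, 66.5 ± 13.6 against 39.9 ± 8.53 CPM (log2 fold change -0.74, standard error 0.22, edgeR adjusted p = 0.0327). It did not pass without sibling replicate 4 or 5 or mutant replicate 2 or 4 (adjusted p 0.1, 0.0749, 0.106 and 0.0956; range over all alternatives 0.0143 to 0.264).

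GABARAPL2 (ENSDARG00000027200), of the same subfamily, had 11.4, 12.1, 14.2 and 14.9 CPM in the siblings and 13.7, 21.3 and 15.2 CPM in the mutants, so that mutant replicate 3 was the highest library and the groups overlapped. Its log2 fold change was 0.35 (95% interval -0.19 to 0.89, edgeR adjusted p = 0.392). MAP1LC3B (ENSDARG00000101127), an LC3 protein widely used as a marker of autophagosomes, had 126, 116, 129.8 and 141 CPM in siblings and 127, 145 and 119 CPM in mutants. Its groups overlapped, with mutant replicate 3 just above the highest sibling. The log2 fold change of 0.02 had a 95% interval from -0.35 to 0.39 (edgeR adjusted p = 0.946), so that a 2-fold change lies outside the interval.

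SQSTM1 (ENSDARG00000075014), also called p62, is a receptor that ties ubiquitin-tagged cargo to ATG8 proteins. It had 55.1, 48.4, 66.3 and 69.0 CPM in sibling replicates 1, 3, 4 and 5 and 33.4, 42.3 and 65.1 CPM in mutant replicates 2, 3 and 4. Mutant replicates 2 and 3 lay below the siblings and replicate 4 among them. The log2 fold change was -0.35 (95% interval -0.85 to 0.15, edgeR adjusted p = 0.352). Without mutant replicate 4 it was -0.66 (adjusted p = 0.0584; range over all alternatives 0.0584 to 0.936).

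The higher-count BNIP3L had 251, 256, 421 and 317 CPM in sibling replicates 1, 3, 4 and 5 and 179, 241 and 112 CPM in mutant replicates 2, 3 and 4. The groups were apart but nearly touched, at mutant replicate 3 and sibling replicate 1. It was 1.76-fold lower in mutants, 311 ± 79.2 against 177 ± 64.5 CPM (log2 fold change -0.81, standard error 0.26, edgeR adjusted p = 0.0448). Of the 4 calls it passed in the fewest alternatives. It was lost without any 1 of the siblings (adjusted p 0.0509, 0.0585, 0.145 and 0.0826 without replicates 1, 3, 4 and 5) or without mutant replicate 2 (0.121) or 4 (0.113), against a range over all alternatives of 0.0134 to 0.229. The lower-count BNIP3L had 25.9, 13.7, 23.8 and 18.8 CPM in siblings and 18.6, 27.6 and 16.4 CPM in mutants. Its groups overlapped, with a log2 fold change of 0.02 (95% interval -0.55 to 0.60, edgeR adjusted p = 0.971).

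The members that fell did not all follow each other within a group. Within the siblings, foxo3b, gabarapa and the higher-count BNIP3L were lowest in replicate 1 and highest in replicate 4, while ATG7 was nearly level. Within the mutants, replicate 3 held the highest value of 7 of the 10 members, and replicate 4 the lowest value of 5. Mutant replicate 4 also had the lowest summed erythroid markers (34458 CPM) and, of the mutants, the highest epidermal markers (1385 CPM). Over the 7 libraries Pearson's r of log2 CPM with foxo3b was 0.97 for gabarapa, 0.92 for the higher-count BNIP3L and 0.90 for ATG7. It was 0.70 for ATG5, 0.59 for SQSTM1, 0.21 for MAP1LC3B, 0.20 for the lower-count BNIP3L, -0.05 for ulk1a and -0.22 for GABARAPL2. These r are descriptions, since the difference between the groups is part of each.

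**Figure D2:**
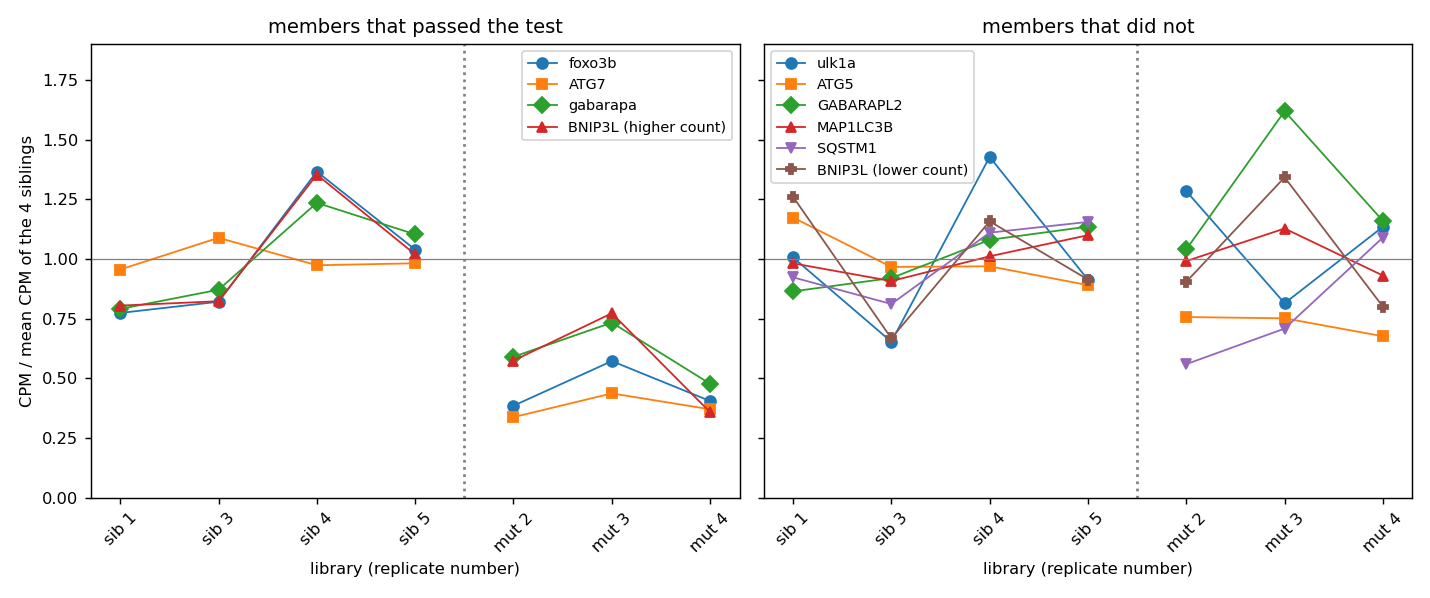
Level of each member divided by its own mean over the 4 siblings (y axis) in each library (x axis), for the 4 members that passed the test (left) and the 6 that did not (right); thin lines only link the values of 1 gene within a group. The called members lie below 1 in all 3 mutants, and foxo3b, gabarapa and the higher-count BNIP3L share a high value in sibling replicate 4.

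Among 10445 genes with a symbol and a mean of at least 5 CPM, the 3 with a pattern most like foxo3b were TSC1 (ENSDARG00000057918, r = 0.995), KIF2A (r = 0.995) and CNOT6L (r = 0.994). TSC1 restrains the growth kinase complex mTORC1, KIF2A is a kinesin that takes microtubules apart, and CNOT6L shortens the poly(A) tails of mRNA. Their log2 fold changes were -0.96, -1.13 and -1.35, a direction that the choice by likeness to foxo3b over both groups fixes. Gabarapa stood at rank 85 by the same measure, the higher-count BNIP3L at rank 482 and ATG7 at rank 641.

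Related genes were also compared within a library as a ratio, which no scaling can alter. This measure was chosen after the values were seen, over 5 pairs, with exact two-sided permutation tests over the 7 libraries, whose smallest possible p is 0.0286. The log2 ratio of gabarapa to its paralog gabarapb fell from -0.59 ± 0.14 (SD, n = 4) to -1.22 ± 0.09 (SD, n = 3), and that of gabarapa to GABARAPL2 from 2.32 ± 0.14 to 1.26 ± 0.24. For both the groups were apart and the exact p was 0.0286, or 0.0477 after Benjamini-Hochberg adjustment over the 5 pairs. Both ratios share gabarapa, which was already called lower. With pairs chosen after the values were seen, the p-values of all 5 are descriptions and add no separate evidence. The log2 ratio of the higher-count to the lower-count BNIP3L was 3.93 ± 0.44 in siblings and 3.05 ± 0.26 in mutants (exact p = 0.0571, adjusted 0.0714), and sibling replicate 1 at 3.27 came next to mutant replicate 2 at 3.27. The log2 ratio of foxo3b to its paralog foxo3a rose from 1.67 ± 0.12 to 1.95 ± 0.11 (exact p = 0.0286, adjusted 0.0477). The log2 ratio of ULK1 to ulk1a was 3.74 ± 0.57 and 2.99 ± 0.63, with overlapping groups (exact p = 0.171, adjusted 0.171).

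**Figure D3:**
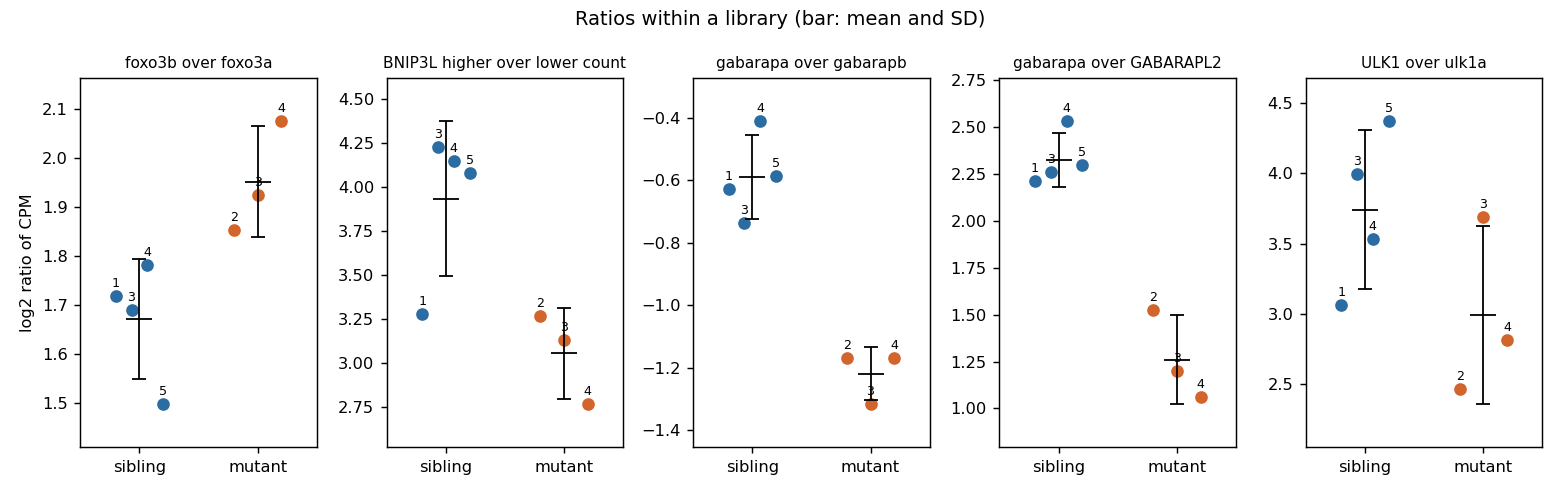
Log2 ratio of the CPM of 2 related genes within each library (y axis, not from 0) for 5 pairs; points are libraries with their replicate number, and bars are the mean and SD of 4 siblings and 3 mutants. The groups are well apart for gabarapa against gabarapb or GABARAPL2, narrowly apart for the BNIP3L and foxo3 pairs, and overlap for ULK1 against ulk1a.

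Other genes of core autophagy were taken from a list of 40 symbols, which gave 38 IDs and 37 tested. Of these 7 fell, 30 did not pass the test and none rose by edgeR, DESeq2 or limma-voom, although 3 had a higher level at an unadjusted p under 0.05. The share that fell was 18.9%, against 7.69% of all tested genes, and the median log2 fold change was -0.27. In the initiation complex 1 of 5 genes fell (20%), the kinase gene ULK2 (24.2 to 13.3 CPM). ULK1 had 58.0, 71.7, 114 and 130.1 CPM in siblings and 48.7, 72.5 and 54.8 CPM in mutants. Its log2 fold change of -0.67 did not pass (edgeR adjusted p = 0.103), except without sibling replicate 1 (0.0442; range over all alternatives 0.0442 to 0.573).

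WIPI1 encodes a protein that binds the lipid that marks the forming membrane. It had 29.3, 20.6, 33.1 and 36.2 CPM in siblings and 8.75, 11.9 and 7.24 CPM in mutants, 3.21-fold lower (edgeR adjusted p = 0.000751). UVRAG, a subunit of the Beclin 1 lipid kinase complex, was 2.28-fold lower, 16.02 ± 2.46 against 7.01 ± 1.11 CPM (adjusted p = 0.00767 by edgeR). ATG4D (ENSDARG00000043548), a protease that trims ATG8 proteins, was 2.15-fold lower, 29.6 ± 7.61 against 13.8 ± 1.83 CPM (edgeR adjusted p = 0.00665). The other calls were ATG2A (79.0 to 39.2 CPM), a lipid transfer protein, atg9b (24.7 to 14.4 CPM), a membrane scramblase, and ATG10 (5.19 to 1.61 CPM), the E2-like enzyme for ATG12. BECN1, the core subunit of the lipid kinase complex, had 13.7 ± 2.39 and 12.1 ± 1.1 CPM (edgeR adjusted p = 0.701). The other tested ATG8 genes gabarapb, MAP1LC3A and map1lc3c did not pass, and none had an unadjusted p under 0.05 or a call by DESeq2 or limma-voom. Without sibling replicate 4 or ddx41 mutant replicate 2 the number of core genes that fell was 4.

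**Figure D4:**
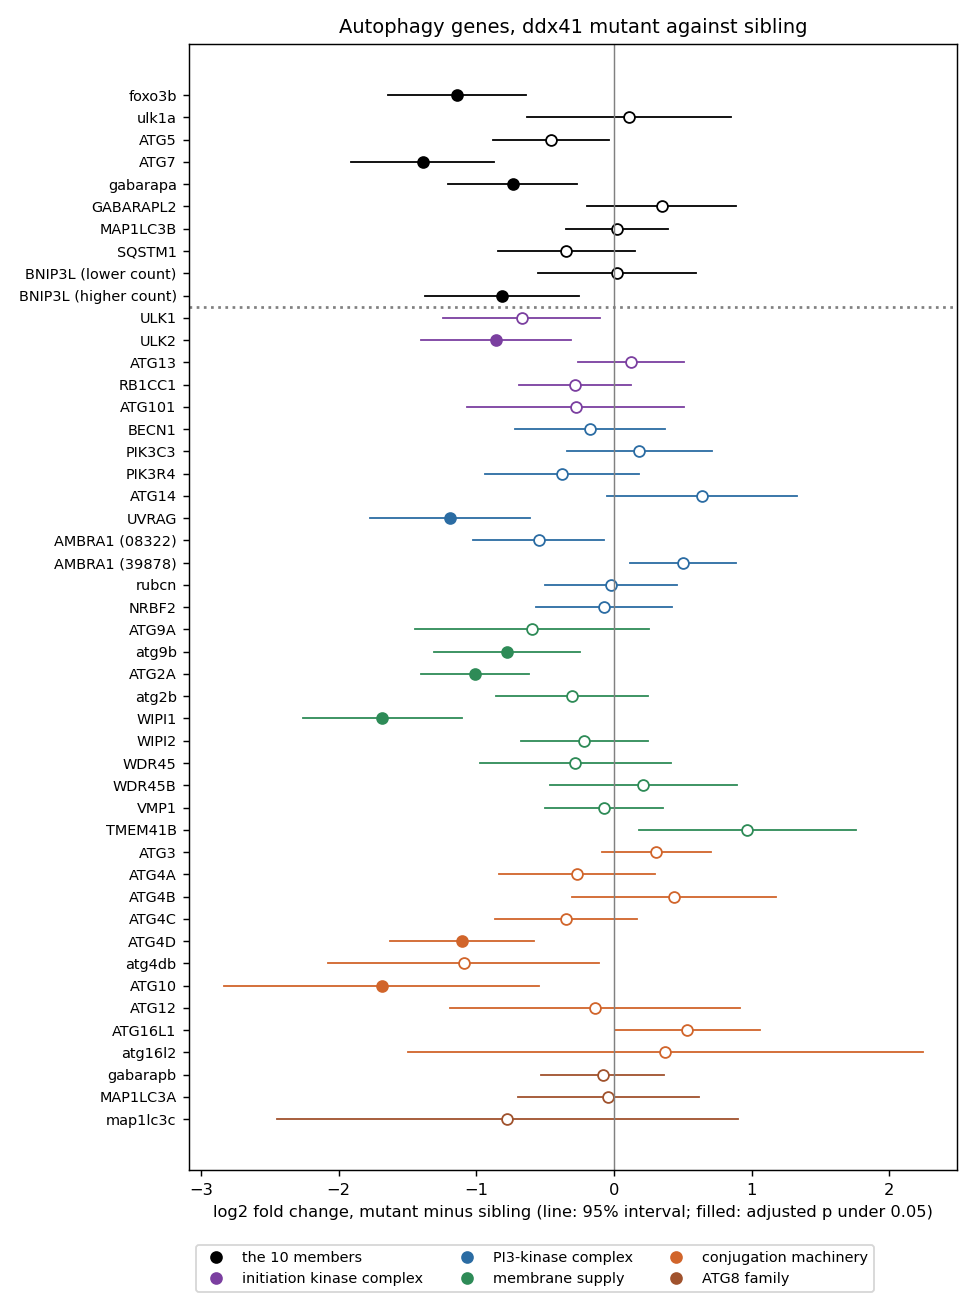
Log2 fold change of mutants over siblings (x axis) with its 95% interval for the 10 members (black, above the dotted line) and 37 other core autophagy genes coloured by role; filled points passed edgeR's test. All 11 filled points lie below 0, from ATG10 at -1.69 and WIPI1 at -1.68 to gabarapa at -0.74.

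Of the other mitophagy and cargo receptor genes (28 symbols, 28 IDs, 24 tested), 3 fell (12.5%) and 2 rose (8.33%), the latter a share near the 8.87% of all tested genes that rose, where 7.69% fell. The gene bcl2l13, for a mitophagy receptor of the outer mitochondrial membrane, had 97.9, 98.9, 148 and 82.6 CPM in siblings and 27.7, 42.8 and 24.6 CPM in mutants. It was 3.37-fold lower (edgeR adjusted p = 0.000324). TBK1, a kinase that acts on cargo receptors, was 1.93-fold lower, and 1 of 2 tested IDs called TAX1BP1, a cargo receptor (ENSDARG00000098288), went from 6.94 to 1.94 CPM. The other and more abundant TAX1BP1 ID (ENSDARG00000056856), at 103 CPM in siblings and 90.5 CPM in mutants, did not pass (edgeR adjusted p = 0.514). VCP, an ATPase that pulls ubiquitin-tagged proteins out of membranes, was 1.83-fold higher, and MUL1, a mitochondrial ubiquitin ligase, was 1.98-fold higher (edgeR adjusted p 0.00857 and 0.0348). The edgeR adjusted p of TBK1 was 0.0198, and 0.0557 and 0.0524 without sibling replicate 1 or mutant replicate 3. MUL1 did not pass without sibling replicate 1 or 5 or any 1 of the mutants (adjusted p 0.0683 to 0.0895). PINK1, the kinase that marks damaged mitochondria, had 5.26, 4.88, 6.06 and 6.0 CPM in siblings and 2.83, 3.92 and 1.65 CPM in mutants. Its groups were apart, but it did not pass (edgeR adjusted p = 0.121). BNIP3, the receptor gene most like BNIP3L, was too low to be tested, at 1.13 ± 1.55 and 1.07 ± 0.886 CPM. Without sibling replicate 1 the list had 1 rise and 1 fall, and without mutant replicate 4 it had 1 rise and 6 falls. The rise was also 1 without sibling replicate 5, mutant replicate 2 or mutant replicate 3.

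At the lysosome, where autophagy ends, most genes of the proton pump were higher in mutants. Of 20 tested IDs of the V-ATPase, the pump that acidifies the lysosome, 15 (75%) rose and none fell, where 8.87% of all tested genes rose, and the median log2 fold change was 0.80. None was lower at an unadjusted p under 0.05, nor by DESeq2 or limma-voom. ATP6V0B had 39.3, 42.0, 42.5 and 37.7 CPM in siblings and 102, 108 and 132 CPM in mutants, 2.82-fold higher (edgeR adjusted p = 5.59e-05). ATP6V0D1 was 2.64-fold higher, 71.5 ± 6.14 against 189 ± 37 CPM (edgeR adjusted p = 0.000169). The 15 log2 fold changes ran from 0.63 at ATP6V1C1 (ENSDARG00000035880) upward. The groups were apart at all 15, and at 27.5% of all tested genes. These 15 were picked by their call, which goes with separate groups, so this adds no further evidence. Without sibling replicate 4 the number of pump genes that rose was 9. The pump genes also serve other acid compartments of the cell.

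Of 14 lysosomal enzyme genes 3 fell (21.4%), where 7.69% of all tested genes fell. They were HEXA (2.45-fold lower), CTSZ (2.32-fold lower) and CTSB (116 to 62.1 CPM), with edgeR adjusted p of 0.00152, 0.00255 and 0.00975. None rose by edgeR or DESeq2, 1 did by limma-voom, and 1 was higher at an unadjusted p under 0.05. Macrophages are rich in such enzymes, and their summed markers were narrowly apart between the groups (792 to 1561 and 403 to 759 CPM). Of the 16 marker IDs 5 fell and 1 rose. The 6 MFAP4 IDs among them summed to 303 to 1009 CPM in siblings and 88.1 to 216 CPM in mutants. Without these 6 IDs the sums of the groups overlapped. The part of macrophages in the enzyme levels was not tested. Of 8 lysosome membrane genes none passed with edgeR, DESeq2 or limma-voom (unadjusted p under 0.05 for 2, both lower). The membrane protein gene LAMP2 was at 64.1 ± 11.7 and 80.5 ± 4.94 CPM (edgeR adjusted p = 0.271).

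Of 14 tested IDs for the fusion of autophagosome and lysosome 3 fell (21.4%) and 1 rose (7.14%), where 7.69% of all tested genes fell and 8.87% rose. STX17, the fusion protein on the autophagosome, had 8.45, 7.44, 12.3 and 8.64 CPM in siblings and 1.5, 2.07 and 1.33 CPM in mutants, a 5.62-fold lower level (edgeR adjusted p = 0.000556). VAMP8, its partner on the lysosome, had 20.4, 18.8, 21.7 and 19.1 CPM in siblings and 45.1, 31.8 and 64.0 CPM in mutants, 2.35-fold higher (edgeR adjusted p = 0.0024). TFEB, which in mammals switches on lysosome genes, had 14.7 ± 4.39 CPM in siblings and 9.18 ± 3.58 CPM in mutants, with overlapping groups (edgeR adjusted p = 0.189). With TFEB, 5 transcription factor IDs of the list were tested, of which 1 fell (20%, against 7.69% of all tested genes) and none rose. This was an ID called MITF (ENSDARG00000037833), at 5.41 CPM in siblings and 1.99 CPM in mutants (edgeR adjusted p = 0.0322). The other ID called MITF did not pass. Over the whole lysosome list of 61 tested IDs 16 rose (26.2%) and 7 fell (11.5%), and 10 rose without sibling replicate 4.

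Of 5 other tested IDs of the FOXO family 3 fell (60%, against 7.69% of all tested genes), and 2 did not pass. None rose (none higher at an unadjusted p under 0.05, nor by DESeq2 or limma-voom). Limma-voom called 2 lower. The paralog foxo3a had 56.4, 61.0, 95.2 and 88.3 CPM in siblings and 25.6, 36.2 and 23.0 CPM in mutants, and was 2.66-fold lower (edgeR adjusted p = 0.00119). FOXO4 went from 54.9 to 26.9 CPM and 1 of 2 IDs called FOXO1 (ENSDARG00000099555) from 7.98 to 2.99 CPM, the latter with overlapping groups (edgeR adjusted p 0.00568 and 0.0495).

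Of 26 tested IDs known as FOXO targets in mammals, 3 rose (11.5%) and 7 fell (26.9%). Of all tested genes 8.87% rose and 7.69% fell, so the share of targets that rose was near that of all genes. The 3 that rose were sesn3, a sestrin that restrains mTORC1 (3.57-fold), GADD45A (ENSDARG00000043581, 1 of 2 tested IDs), a growth arrest gene (2.26-fold), and TXNIP (ENSDARG00000036107), which binds thioredoxin (2.05-fold). Their edgeR adjusted p values were 0.000587, 0.0186 and 0.00148, and that of GADD45A was 0.0602 without sibling replicate 4 and 0.133 without mutant replicate 2. The largest falls were those of GLUL (ENSDARG00000099776, 1 of 2 tested IDs), glutamine synthetase, 4.58-fold, of SOD2, the mitochondrial superoxide dismutase, 3.32-fold, and of IRS2 (ENSDARG00000037099, 1 of 2 tested IDs), an adaptor of insulin signalling, 3.10-fold. By edgeR the adjusted p values were 0.0127, 0.000518 and 0.00933, and that of GLUL was 0.0542 without mutant replicate 2. Over family and targets together 10 of 31 fell, and 4 fell without ddx41 mutant replicate 2.

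Autophagy is restrained by mTORC1 and started by AMPK. Of 42 tested IDs of these pathways 6 rose (14.3%) and 7 fell (16.7%), where 8.87% of all tested genes rose and 7.69% fell. Their median log2 fold change was 0.06, near that of all tested genes. Among 12 tested IDs listed with the complex and its lysosomal anchor, 3 fell (25%), 2 rose (16.7%) and 7 did not pass. RPTOR, akt1s1 and DEPTOR fell (log2 fold changes -1.07, -1.24 and -1.13), while LAMTOR1 and LAMTOR5, subunits of the anchor, rose (1.04 and 0.73). The gene akt1, for a kinase that restrains FOXO proteins, had 172, 121, 142 and 86.6 CPM in siblings and 37.4, 55.8 and 32.2 CPM in mutants, 3.12-fold lower (edgeR adjusted p = 0.000634). PDPK1 (ENSDARG00000062304, 1 of 2 tested IDs), a kinase that activates AKT, was 2.58-fold lower, and castor1, an arginine sensor of mTORC1, 2.50-fold lower (edgeR adjusted p 0.0122 and 0.0165). Without mutant replicate 2 these were 0.0552 and 0.0774, and castor1 also did not pass without sibling replicate 4 (0.0564). NPRL3, a subunit of an inhibitor of mTORC1, had 170, 188, 219 and 188 CPM in siblings and 375, 744 and 414 CPM in mutants, 2.67-fold higher (edgeR adjusted p = 0.000831). Among 18 tested IDs for AMPK and AKT, 3 rose (16.7%), 2 fell (11.1%) and 13 did not pass. The AMPK subunit genes prkag3b and PRKAG2 were 5.81-fold and 2.43-fold higher, from 2.28 and 4.80 CPM in siblings (edgeR adjusted p 0.00523 and 0.0325). PRKAG2 did not pass without sibling replicate 3 or 4 or mutant replicate 2 or 4 (adjusted p 0.0533 to 0.122). MTOR itself, at 135.5 ± 24.8 and 99.96 ± 3.3 CPM, did not pass (edgeR adjusted p = 0.13), although its groups were apart.

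**Figure D5:**
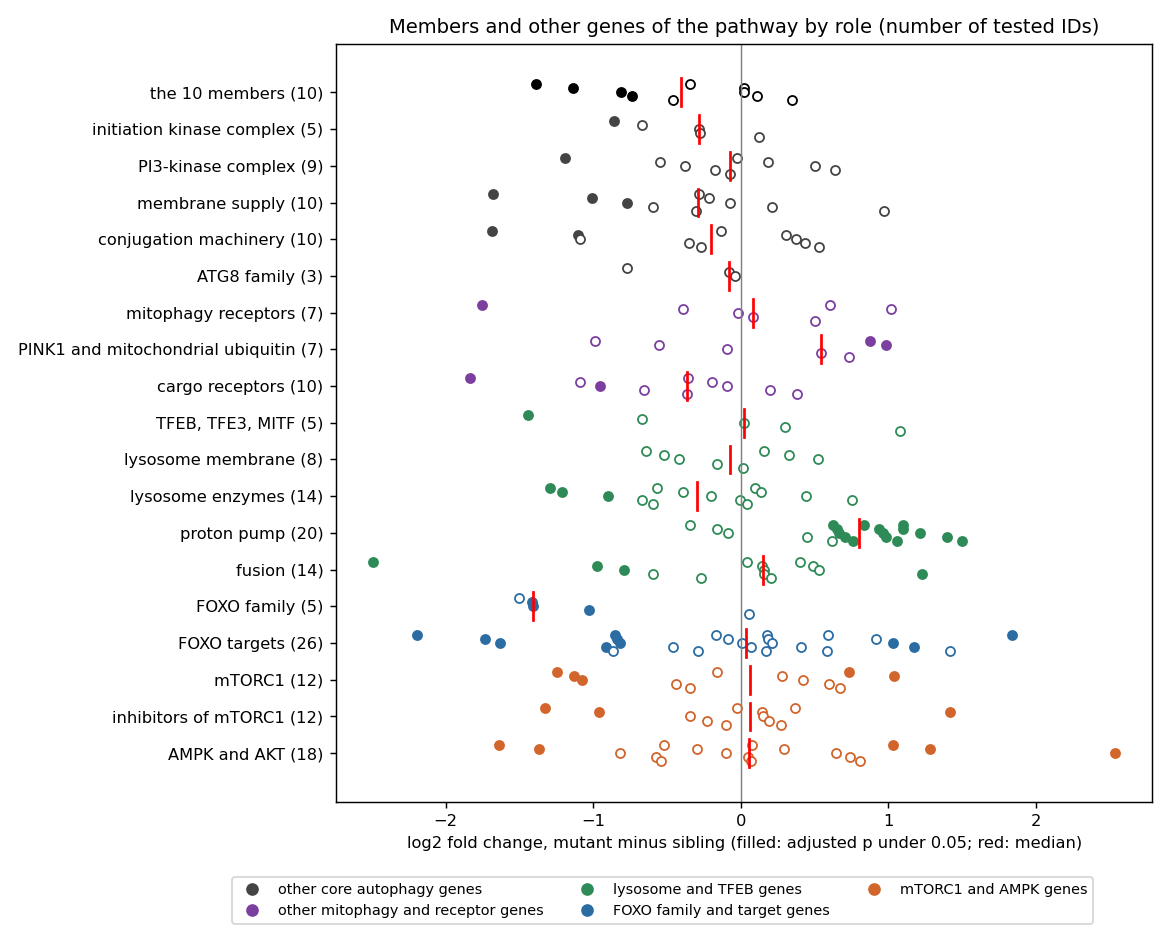
Log2 fold change of mutants over siblings (x axis) for the members and the tested IDs of 5 other lists, by role (y axis, number of IDs in brackets); each point is 1 gene ID, filled where it passed edgeR's test, and the red line is the median. The proton pump lies mostly above 0 (median 0.80) and the FOXO family mostly below (median -1.41), with the members at -0.40.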

How the data were processed

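One deposited matrix gives, per its values and column names, unnormalised read counts of Ensembl genes in 7 libraries. Among the tools in the submitters' processing notes are STAR 2.4.2a, Cufflinks 2.2.1, Trim Galore, Picard and DESeq2, with build GRCz10 and no role or order. Which program counted reads, and on which strand, is not given in the sources used here. Overlapping or antisense genes and near-identical paralogs may therefore share reads. Titles tied every column to a sample.

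A table of gene names gave a symbol to 26269 of 32105 IDs. A symbol absent in any letter case was looked up in capitals without its paralog letter, and 212 of 221 gene list symbols were matched. The members and lists were chosen with earlier results of these data known. Named genes were every member, 9 genes fixed by name (1 was too low to test and 1 is not reported here), up to 3 of the largest changes per direction in each other list (adjusted p under 0.05, groups apart, mean of at least 5 CPM) and the 3 genes most like foxo3b by Pearson's r of log2(CPM + 0.5). Other genes named are calls given to complete a count, chosen after their values were seen.

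The test was edgeR 4.0.16 in R 4.3.3, with filterByExpr by group (minimum count 10, total 15), TMM scaling, glmQLFit and glmQLFTest with no block, and Benjamini-Hochberg adjustment at 0.05. Standard errors are the log2 fold change over the square root of F, and 95% intervals use the test's degrees of freedom. The common biological coefficient of variation was 0.377. No pair of libraries of a group agreed within counting noise. Only the edgeR step, without a block, was tested on simulated data, drawn as independent libraries. Alternatives were RLE scaling, library totals, no filter, a stricter filter (1 CPM in 3 libraries), DESeq2 1.42.0, limma-voom (limma 3.58.1), a block for the replicate number, each library left out in turn and, chosen after seeing the data, totals without the 2 most abundant gene IDs. Counting the proton pump and the FOXO family on their own was also chosen after seeing the data.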

Additional observations from a re-analysis of the deposited data

Results flagged for a closer look

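In 3 of 44 genes examined, 1 sibling library stood apart from the other siblings by Dixon's test, which marks about 1 in 20 groups by chance. ATG4D (ENSDARG00000043548) was at 41.0 CPM in sibling replicate 4 and at 25.4 to 26.1 CPM in the other siblings. VCP was at 137 CPM in sibling replicate 5 and at 179 to 187 CPM in the other siblings. PDPK1 (ENSDARG00000062304) was at 39.0 CPM in sibling replicate 5 and at 15.4 to 19.1 CPM in the other siblings.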

How the results depend on the processing

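Of the 4 members called lower, foxo3b and ATG7 passed in 14 of 15 alternatives, gabarapa in 10 and the higher-count BNIP3L in 8. The replicate number as a block called none of the members, 592 genes higher and 431 lower (1646 and 1427 without it), 1 other core autophagy gene lower, 0 other mitophagy genes higher, 2 lysosome genes higher (2 of the proton pump) and 2 lower, 3 FOXO genes lower (1 of the family), and 3 mTORC1 and AMPK genes higher and 1 lower. Its adjusted p was 0.117 for foxo3b and 0.0595 for ATG7. Numbers 3 and 4 are shared by the groups, but same-numbered libraries did not deviate together from their group means (r = -0.02 and -0.18). The highest r joined unlike numbers: 0.27 for sibling 5 with mutant 4, 0.23 for sibling 4 with mutant 3, and 0.20 for sibling 3 with mutant 2. All other pairs were at or below 0.055. Deviations within a group cancel out, so some r must be positive, and most pairs join unlike numbers. These r therefore cannot decide how the libraries pair. A block by equal number cannot hold pairs of unlike numbers, and a shared origin of these libraries was not tested. Tests without a block treat the libraries as independent. The block also leaves few degrees of freedom. Its comparison of the groups rests on numbers 3 and 4 alone, since numbers 1, 2 and 5 each occur in 1 group only. With library totals 1 other core gene was higher and 4 were lower, and DESeq2 called 5 other mitophagy genes lower. Leaving out each library gave 1014 to 1471 genes higher and 874 to 1487 lower, 2 to 4 members, 4 to 6 core genes, 4 to 9 FOXO genes and 1 to 6 mitophagy genes lower, and 1 to 3 mitophagy, 10 to 15 lysosome and 9 to 14 pump genes higher.

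The sign turned, without a call, for 3 members. For ulk1a it did so with the replicate block (-0.014) and without sibling replicate 3 (-0.069) or mutant replicate 2 (-0.040), within -0.069 to 0.30 over the libraries left out. For MAP1LC3B it did so with RLE (-0.00043), no filter (-0.0035) and DESeq2 (-0.00055) and without replicate 3 of either group, within -0.095 to 0.083 over the libraries left out. For the lower-count BNIP3L it did so with no filter (-0.0017) and without sibling replicate 3 or 5 or mutant replicate 3, within -0.27 to 0.17 over the libraries left out. The cause was not tested. The lowest member count, 58 for ulk1a, limits its precision.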
